A study of Mus musculus with 10 samples.

Results

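The genes described here are 7 members of the fetal program of hematopoietic stem cells: the RNA-binding protein Lin28b, the architectural chromatin proteins Hmga2 and Hmga1, the mRNA-binding proteins Igf2bp1, Igf2bp2 and Igf2bp3, and the transcription factor Sox17. They were chosen by name, and all 7 were present among the 17404 genes of the count table. The libraries came from long-term hematopoietic stem cells (LT-HSCs) sorted as CD150+ cells at E14.5 (days of embryonic development) from fetal livers of mice. In KO embryos (Tnfrsf11aCre; Spi1f/f, n = 6) the Cre recombinase is expressed from the Tnfrsf11a locus, which is active in macrophage precursors, and removes the floxed Spi1 gene that macrophages need. WT littermate embryos (Tnfrsf11a+/+; Spi1f/f, n = 4) carry the same floxed Spi1 alleles but no Cre. The model therefore depletes fetal liver macrophages, and the comparison asks how stem cells differ when they develop without them.

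In fetal stem cells LIN28B binds precursors of the let-7 microRNAs and blocks their maturation. Mature let-7 represses mRNAs that carry a match to its seed in the 3′ untranslated region (3′UTR), and HMGA2, HMGA1 and the IGF2BP proteins are among the best known products of such mRNAs. HMGA2 supports self-renewal of fetal and young stem cells, IGF2BP proteins stabilise bound mRNAs and control where they are translated, and SOX17 is needed by fetal but not by adult stem cells and is also a factor of arterial endothelium.

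The sequences of the let-7 family show what these genes have in common. Of the mature mouse miRNAs listed by RefSeq (GRCm38.p6), 13 entries with 11 different sequences share the bases at positions 2 to 8. The 4 below are shown as examples of this shared seed, which is in capitals, from loci on chromosomes 13, 15, 9 and X.
let-7a-5p: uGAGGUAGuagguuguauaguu
let-7b-5p: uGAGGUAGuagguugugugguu
let-7g-5p: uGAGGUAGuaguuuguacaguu
miR-98-5p: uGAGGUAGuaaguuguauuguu
Outside the seed, the 4 differ mainly in their 3′ part. These libraries hold polyadenylated RNA, and mature miRNAs were not measured.

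The reverse complement of the seed, CTACCTC, was looked for on the sense strand of the longest annotated 3′UTR of each gene (Gencode vM21, GRCm38). It was present in 6 of the 7 genes and in 10.4% of 15616 tested genes with an annotated 3′UTR. Lin28b, Hmga2 and Igf2bp1 held 4 matches each, a number reached by 0.0704% of all these genes. Hmga1, Igf2bp2 and Igf2bp3 held 1 match each, and Sox17 held none in its 785 bases. Long 3′UTRs can hold more matches by their length alone. Among genes with a 3′UTR within 20% of the same length, 4 or more matches were found in 0.172% for Lin28b, in 0.103% for Hmga2 and in 0.198% for Igf2bp1. For the genes with 1 match, 8.29% (Hmga1), 12.0% (Igf2bp2) and 13.6% (Igf2bp3) of genes of like length had at least 1. A match of these letters is a description of the sequence and not a shown binding site.

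The match nearest to the stop codon in each gene is printed here in 22 bases of mRNA sense, with the match in capitals, because it is the element that the let-7 family and these genes share.
Lin28b, chr10:45381022-45381043 (minus strand): cccgggcgggaagtCTACCTCa
Hmga2, chr10:120364224-120364245 (minus strand): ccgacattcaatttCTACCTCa
Hmga1, chr17:27563278-27563299 (plus strand): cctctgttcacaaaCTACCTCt
Igf2bp1, chr11:95961778-95961799 (minus strand): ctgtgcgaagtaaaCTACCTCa
Igf2bp2, chr16:22059473-22059494 (minus strand): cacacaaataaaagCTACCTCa
Igf2bp3, chr6:49086787-49086808 (minus strand): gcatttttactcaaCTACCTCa
The A that follows the match in 5 of the 6 sequences is the base that lies opposite the first base of the miRNA. In Lin28b and Hmga2 the match lay close to the stop codon, starting at base 36 and base 58 after it. In Igf2bp1 the first match lay at base 1715 of a 3′UTR of 6337 bases.

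**Figure D1:**
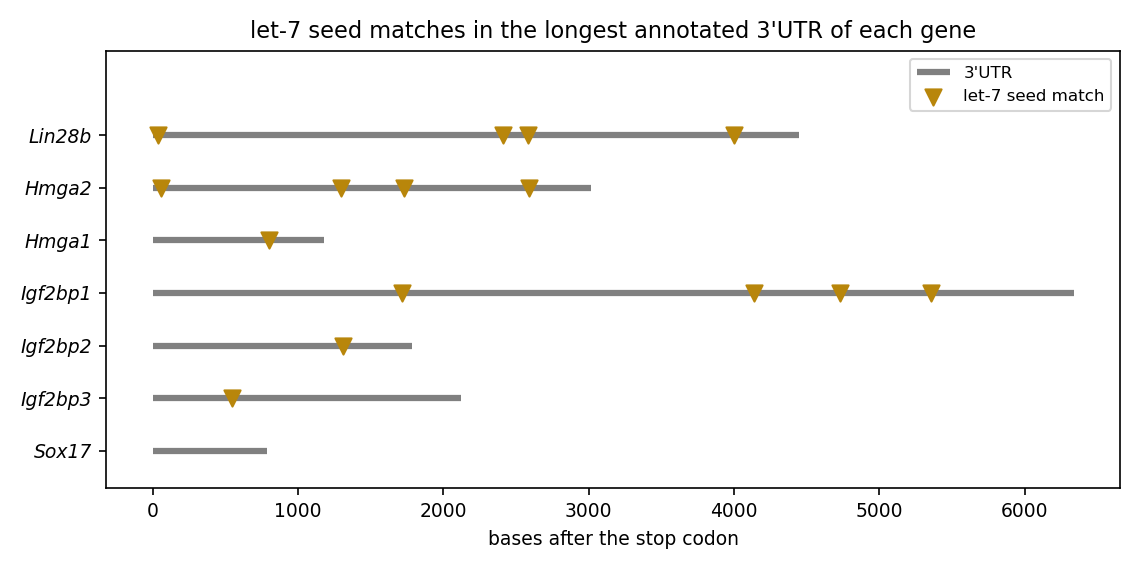
Each grey bar is the longest annotated 3′UTR of a gene, drawn to scale in bases after the stop codon, and each triangle is a match to the let-7 seed. Lin28b, Hmga2 and Igf2bp1 carry 4 triangles each, Hmga1, Igf2bp2 and Igf2bp3 carry 1, and Sox17 carries none.

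Each KO library held between 5315435 and 30941726 counts on genes, and each WT library between 7633446 and 18256010. Cell types were checked through marker lists, as summed CPM, the counts of a gene scaled to a common library size, after TMM scaling for depth and composition. LT-HSC markers summed to 772.5 to 2013 CPM in KO and 569.9 to 845.5 CPM in WT, and 3 of 12 (Cd34, Mecom and Hlf) passed edgeR's test as higher in KO, as did 1.32% of all genes. Endothelial markers summed to 1978 to 9763 CPM in KO and 562 to 6485 CPM in WT, hepatoblast markers to 96.6 to 9349 and 281 to 6393 CPM, and erythroblast markers to 250.5 to 2366 and 266 to 6749 CPM. In the other lists, megakaryocyte markers summed to 242 to 3684 CPM in KO and 233 to 1269 CPM in WT, macrophage markers to 203 to 920.4 and 99.96 to 701.5 CPM, and granulocyte markers to 12.6 to 1241 and 6.07 to 2108 CPM. The Kupffer cell marker Marco had 0 counts in all KO libraries and 3.41 to 14.3 CPM in WT, and passed as lower (adjusted p = 0.0824), as did Epor among the erythroblast markers (adjusted p = 0.0938) and 2.67% of all genes. Clec4f had 0 counts in all KO libraries and in 3 of the 4 WT libraries. Only 2 of the 12 macrophage markers had positive log2 fold changes, Vcam1 (0.59) and Mrc1 (0.22), and the median was -1.48. Mrc1 made up much of the macrophage sum, with 714.5 of 920.4 CPM in KO replicate 3 and 489 of 701.5 CPM in WT replicate 4. The sorted libraries thus held RNA of genes that define other cells of the fetal liver, in amounts that differed between libraries of both groups. Log2 fold changes were positive for 10 of 12 LT-HSC (median 1.17) and 0 of 8 erythroblast markers (-1.54). They were positive for 7 of 7 megakaryocyte (1.08) and 12 of 12 hepatoblast markers (0.76). They were positive for 10 of 12 endothelial (0.37) and 5 of 8 granulocyte markers (0.33), and the median over all genes was 0.06. An unadjusted p below 0.05 in edgeR's test was found for 8 of the 12 LT-HSC markers, beside 18.8% of all genes. It was found for 3 of the erythroblast, 1 of the megakaryocyte and 0 of the hepatoblast markers. The globin genes of the erythroblast list were not in the count table. WT replicate 1 had the lowest endothelial sum and WT replicate 3 the highest erythroblast sum. The part of these differences in the values of the 7 genes was not tested, and in RNA from whole sorted pools fewer cells of a type and less RNA per cell cannot be told apart. Spi1 itself had 9.10 to 101 CPM in KO and 6.22 to 50.1 CPM in WT (log2 fold change 1.31, SE 0.686, adjusted p = 0.337), and counts over the whole gene do not show whether the floxed part was present.

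None of the 7 genes passed the test between KO and WT, nor did any with DESeq2 at the study's settings. The edgeR quasi-likelihood test was fitted across 16725 genes with Benjamini-Hochberg adjustment, and at its threshold of 0.1 it called 3.99% of all genes, 1.32% as higher and 2.67% as lower in KO. Without adjustment, 2 of the 7 genes had p below 0.05, both higher in KO, beside 18.8% of all genes tested in either direction and 8.6% in that direction. These were Hmga2 and Igf2bp2, and their KO means were 2.06 and 1.94 times their WT means. For Lin28b, Hmga1, Igf2bp1, Igf2bp3 and Sox17 the intervals of the difference included 0. The 7 log2 fold changes had a median of 0.19, beside 0.06 over all genes tested.

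**Figure D2:**
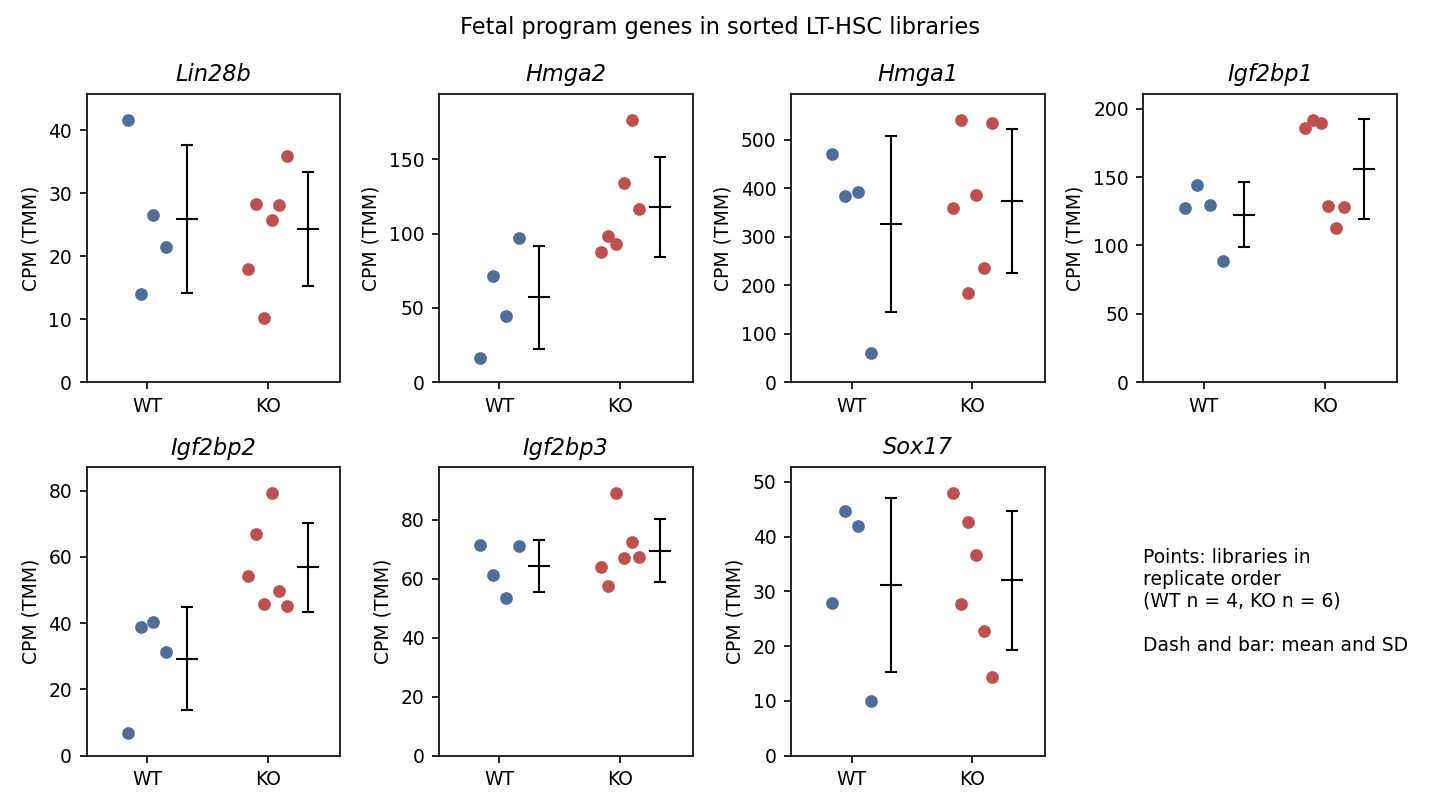
CPM of each gene (linear axes from 0, a scale of its own for each gene) in the 4 WT (blue) and 6 KO (red) libraries, with mean and SD beside the points. Igf2bp2 alone has all KO points above all WT points; in Hmga2 the groups meet through WT replicate 4, and in the other 5 genes they overlap broadly.

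Lin28b sits at the head of the pathway. Its gene spans chr10:45376620-45486395 on the minus strand, and its exons share no base with those of another annotated gene. In WT, Lin28b had 41.6, 14.02, 26.55 and 21.4 CPM in replicates 1 to 4. In KO, the lowest, median and highest of the 6 libraries were 10.2, 26.9 and 35.9 CPM. The KO range lay within or just below that of WT, and the highest value of all was in WT replicate 1. The log2 fold change was -0.09 (SE 0.373, 95% interval -0.90 to 0.72, adjusted p = 0.924), an interval that still allows a change of nearly a log2 unit downward. Lin28a, the paralog that acts in embryonic stem cells, was near 0 in every library, with at most 0.518 CPM.

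The gene total of Lin28b joined 1 coding and 2 noncoding transcripts, and the kinds were not in the same proportion in the groups. This pattern was chosen after its values were seen, and it is given as a description with no test. Lin28b-201, 5402 bases long, encodes the protein and ends in the exon at chr10:45376620-45381431, which holds the whole 3′UTR and its 4 let-7 seed matches. Lin28b-203, a processed transcript of 1382 bases without an annotated coding sequence, starts from an upstream first exon at chr10:45486227-45486395. It ends in a prolonged exon at chr10:45418363-45419208, lacks the last exon of Lin28b-201 and holds no seed match.

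Lin28b-201 had 6.02, 2.11, 2.76 and 3.21 TPM in the WT libraries, and 1.75 to 5.02 TPM in the KO libraries. The WT libraries held 0.688, 1.01, 0.795 and 0 TPM of Lin28b-203. In the KO libraries Lin28b-203 had 5.08, 5.50, 1.77, 4.45, 5.30 and 3.39 TPM. All 6 KO libraries were above all 4 WT libraries for the noncoding transcript, while for the coding one the groups overlapped. In TPM summed over each gene, 5.7% of genes had this separation, and the share among single transcripts was not computed. The other noncoding transcript, Lin28b-202, a processed transcript of 2902 bases, had 0.262 ± 0.178 TPM in KO (SD, n = 6) and 0.223 ± 0.233 TPM in WT (SD, n = 4). In WT replicate 1 it held more estimated counts (22.6) than Lin28b-203 (14.4), and it is part of the noncoding share. TPM, a level per length that sums to the same total in each library, was shifted upward in KO over all genes by a median log2 ratio of 0.47, so that the shares within the gene are the firmer measure.

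Noncoding transcripts held 55.2% ± 8.40 (SD, n = 6) of the TPM of Lin28b in KO and 19.8% ± 16.2 (SD, n = 4) in WT. The lowest KO library stood at 44.5% and the highest WT library at 39.0%, so that the groups did not overlap but came within a few percentage points. Of 7974 genes with both kinds of transcript, 3.49% had a higher share in all KO than in all WT libraries, and 0.752% a lower one. The median over these genes was 16.7% in KO and 13.1% in WT. By estimated counts, which do not weight for length, the noncoding part made up 18.1% to 32.8% of Lin28b in the KO libraries and 0% to 16.8% in the WT libraries. The depth behind these shares was small, with 37.5 to 293 noncoding estimated counts per KO library and 0 to 36.9 per WT library. When the coding transcript alone was counted, the log2 fold change of Lin28b was -0.37 (SE 0.397, adjusted p = 0.686). Processed transcripts, the class of both noncoding transcripts, took 2.80% to 3.19% of all counts in the KO libraries and 2.36% to 3.68% in the WT libraries, and transcripts with a retained intron 4.42% to 5.42% and 3.49% to 5.24%. The part of these shares in the pattern was not tested.

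**Figure D3:**
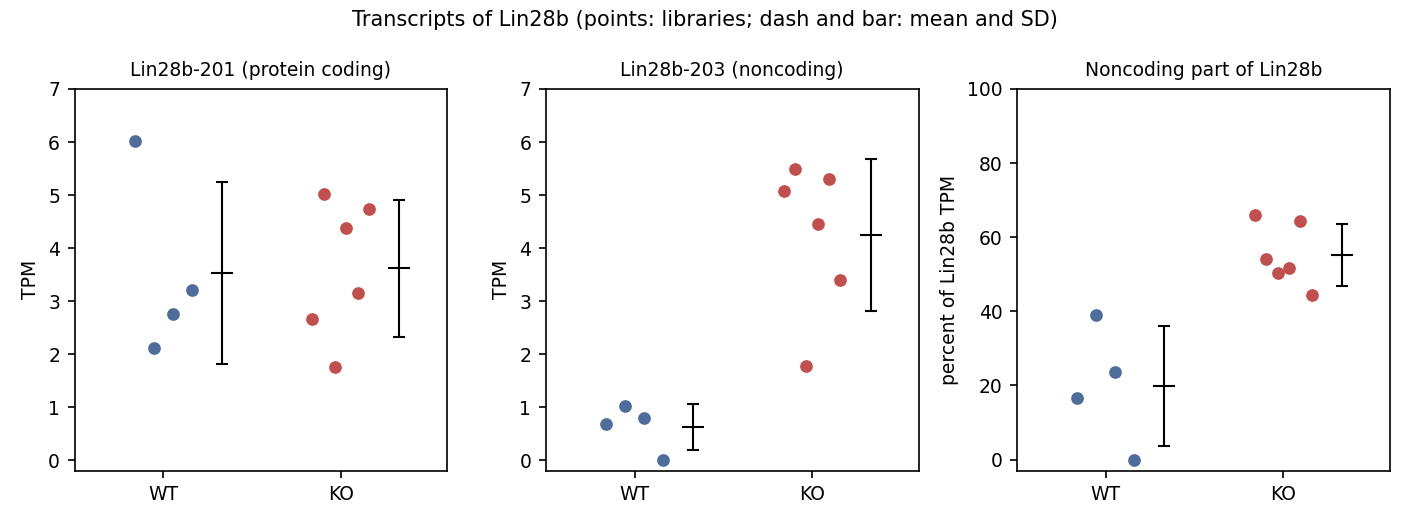
TPM of the coding transcript Lin28b-201 and the noncoding transcript Lin28b-203, and the noncoding part of Lin28b TPM in percent, in WT (blue, n = 4) and KO (red, n = 6) libraries, with mean and SD. The groups overlap for Lin28b-201, and the KO points lie above the WT points for Lin28b-203 and for the noncoding part.

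Among the 7 genes, Hmga2 had the largest log2 fold change. HMGA2 is a small protein with AT hooks that bends DNA in the minor groove, and its mRNA is a textbook let-7 target. The gene lies at chr10:120361275-120476469 on the minus strand. In WT, Hmga2 had 16.2, 71.2, 44.3 and 97.0 CPM in replicates 1 to 4. In KO, the lowest, median and highest values were 87.4, 107.5 and 177 CPM. WT replicate 4 lay above 2 of the 6 KO libraries, and the other 3 WT libraries lay below all of them.

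Hmga2 had a log2 fold change of 1.04 (SE 0.401, 95% interval 0.17 to 1.91, adjusted p = 0.190). The two-sided exact permutation test of the difference in mean CPM gave p = 0.0286, and 0.213 after adjustment over all genes, of which 18.6% had an exact p below 0.05. Without WT replicate 1 the log2 fold change of Hmga2 was 0.73 and the exact permutation p was 0.0833, and without WT replicate 4 the log2 fold change was 1.42. Its 140 exonic bases shared with 1700006J14Rik, on the other strand, cannot be separated because the reads carry no strand. In DESeq2's test of any change from 0, Hmga2 passed with an adjusted p of 0.0884. Log2 fold changes rose with transcript length over 16001 genes (Spearman rho 0.222, and 0.0192 with an offset for transcript length). With this offset the log2 fold change of Hmga2 was 0.55 (adjusted p = 0.473 in edgeR's test). Nearly all of the RNA was on the coding transcript Hmga2-201, with 33.5 ± 6.57 TPM in KO (SD, n = 6) and 12.8 ± 8.63 TPM in WT (SD, n = 4).

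Hmga1, the paralog of Hmga2 that stays on in many dividing cells, did not differ in the test. The gene lies at chr17:27556497-27563674 on the plus strand. The WT libraries had 469.6, 384, 392 and 60.1 CPM, and the KO libraries ranged from 184 to 541 CPM with a median of 373. WT replicate 4 lay far below every other library, and the remaining WT libraries lay inside the KO range. The log2 fold change was 0.19 (SE 0.475, 95% interval -0.84 to 1.23, adjusted p = 0.866), and without WT replicate 4 it was -0.15. Hmga1b, a near-identical copy elsewhere in the genome, had 2.97 to 17.4 CPM, and how reads were split between the copies is uncertain. Hmga1 also shares 124 exonic bases with genes on the other strand.

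The IGF2BP proteins bind mRNAs of growth genes, among them Igf2 and Myc. Igf2bp2 was the member whose groups did not overlap. The gene lies at chr16:22059009-22163299 on the minus strand and shares no exonic base with another gene. The WT libraries had 6.75, 38.9, 40.3 and 31.3 CPM. The KO libraries had 45.1 at the lowest, 51.9 at the median and 79.2 CPM at the highest. All 6 KO libraries were above all 4 WT libraries, as in 2.88% of all genes tested, and the gap between the groups was small beside the distance of WT replicate 1 from the rest.

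Igf2bp2 had a log2 fold change of 0.96 (SE 0.402, 95% interval 0.08 to 1.83, adjusted p = 0.223). The exact permutation test gave p = 0.00952, and 0.136 after adjustment over all genes. Without WT replicate 1 the log2 fold change was 0.62 and the exact permutation p was 0.0595, so that the difference rested in part on this library. Most of the Igf2bp2 RNA was assigned to a transcript with a retained intron, Igf2bp2-207, with 10.9 ± 3.31 TPM in KO (SD, n = 6) and 5.23 ± 2.98 TPM in WT (SD, n = 4). The coding Igf2bp2-201 had 3.60 ± 1.28 TPM and 1.51 ± 1.27 TPM, in the same order. Igf2bp2-202, also coding, had 3.76 ± 4.37 TPM in KO, between 0 and 11.2 TPM, and 0.0821 ± 0.127 TPM in WT. Counted over protein-coding transcripts alone, the log2 fold change was 1.55 (SE 0.592, adjusted p = 0.213). With an offset for transcript length it was 0.67 (SE 0.391, adjusted p = 0.376).

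Igf2bp1, the IGF2BP gene most restricted to embryonic tissue, lies at chr11:95957163-96005940 on the minus strand. The WT libraries had 128, 144.5, 129.6 and 88.5 CPM, and the KO libraries ranged from 113 to 192 CPM with a median of 157. KO replicates 1, 2 and 3 stood above all WT libraries, and KO replicates 4, 5 and 6 fell among them. Its log2 fold change was 0.35 (SE 0.217, 95% interval -0.12 to 0.82, adjusted p = 0.414), and with an offset for transcript length it was 0.03 (adjusted p = 0.960). Its 3′UTR is the longest of the 7. It shares 135 exonic bases with other annotated genes, the miRNA gene Mir3063 among them.

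Igf2bp3, the remaining paralog, also with a mainly fetal pattern, was the most even of the 7 genes. Its gene lies at chr6:49085223-49214957 on the minus strand. The WT libraries had 71.4, 61.4, 53.3 and 71.2 CPM, and the KO libraries 57.4 at the lowest, 67.2 at the median and 89.0 CPM at the highest. The highest and the lowest library differed 1.55-fold in KO and 1.34-fold in WT, and the groups overlapped. The log2 fold change was 0.11 (SE 0.183, 95% interval -0.29 to 0.51, adjusted p = 0.795), the narrowest interval of the 7. Part of this count cannot be told apart from Malsu1 on the other strand, with which Igf2bp3 shares 1529 of its 8159 exonic bases.

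Sox17, the only transcription factor among the 7 and the only one without a seed match, lies at chr1:4490931-4497354 on the minus strand. The WT libraries had 27.8, 44.7, 41.9 and 10.05 CPM, and the KO libraries ranged from 14.3 to 47.9 CPM with a median of 32.1. Values from low to high were found in both groups, with the lowest in WT replicate 4 and the highest in KO replicate 1. Sox17 had a log2 fold change of 0.04 (SE 0.416, 95% interval -0.86 to 0.94, adjusted p = 0.973). In KO replicates 1 to 6 Sox17 had 47.9, 27.7, 42.7, 36.5, 22.8 and 14.3 CPM. The endothelial marker sums in these libraries were 7953, 5066, 9763, 4915, 4383 and 1978 CPM. In WT replicates 1 to 4 the sums were 562, 6485, 5080 and 5914 CPM. The part of endothelial RNA in the level of Sox17, an endothelial gene too, was not tested. Sox17 shares 804 of its 4772 exonic bases with Gm37587 on the other strand.

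**Figure D4:**
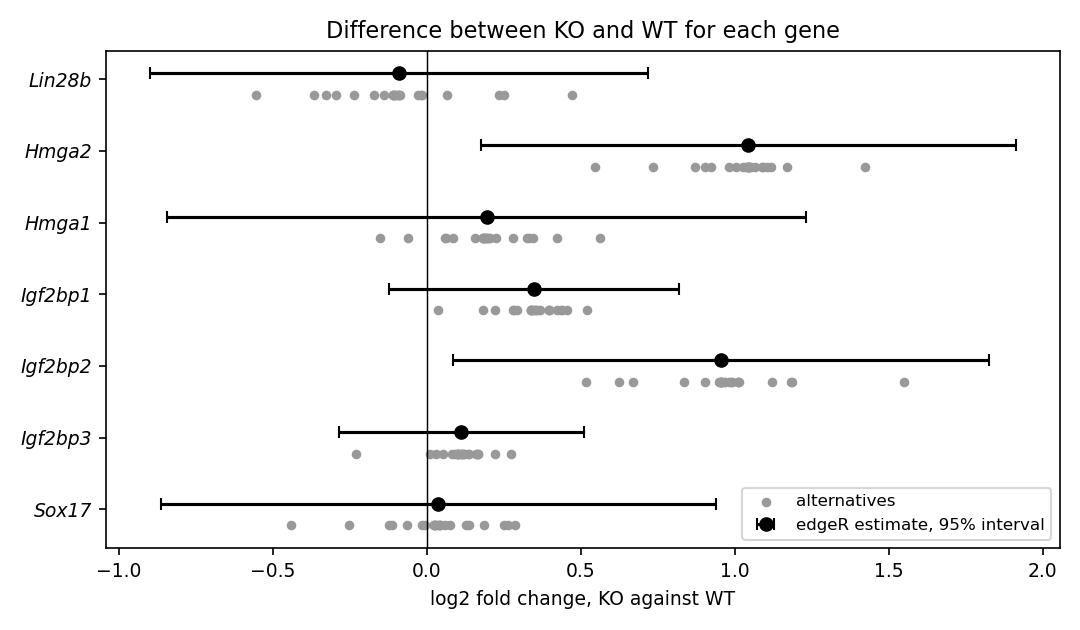
Log2 fold change of each gene between KO and WT: black points are edgeR estimates with 95% intervals, and grey points are the estimates under the 24 alternatives. The grey points of Hmga2, Igf2bp1 and Igf2bp2 all lie above 0, and those of the other 4 genes lie on both sides of it.

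Levels can be set side by side between genes only per length. In WT, Hmga1 was the most abundant with 171 ± 103 TPM (SD, n = 4), at percentile 95.9 of the genes tested, and its lowest library (31.8 TPM) was also above the highest of any other member (26.75 TPM for Sox17). Sox17 (16.4 ± 9.49 TPM), Igf2bp1 (15.0 ± 5.25 TPM), Igf2bp3 (14.3 ± 3.31 TPM) and Hmga2 (12.8 ± 8.60 TPM) followed with ranges that overlapped, so that their order is not set beyond the spread of the libraries. Igf2bp2 (7.21 ± 4.22 TPM) and Lin28b (4.37 ± 1.90 TPM) closed the order, and their ranges overlapped too. Lin28b stood at percentile 48.4 of the genes tested, the other 6 above it. In KO, Hmga1 again led with 268 ± 117 TPM (SD, n = 6) and Lin28b was again the lowest with 8.13 ± 2.49 TPM, while Hmga2 came next to Hmga1 with 34.1 ± 7.17 TPM. In summed TPM, which is shifted upward in KO, all KO libraries were above all WT libraries for Hmga2 and Igf2bp3, as for 5.7% of genes.

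**Figure D5:**
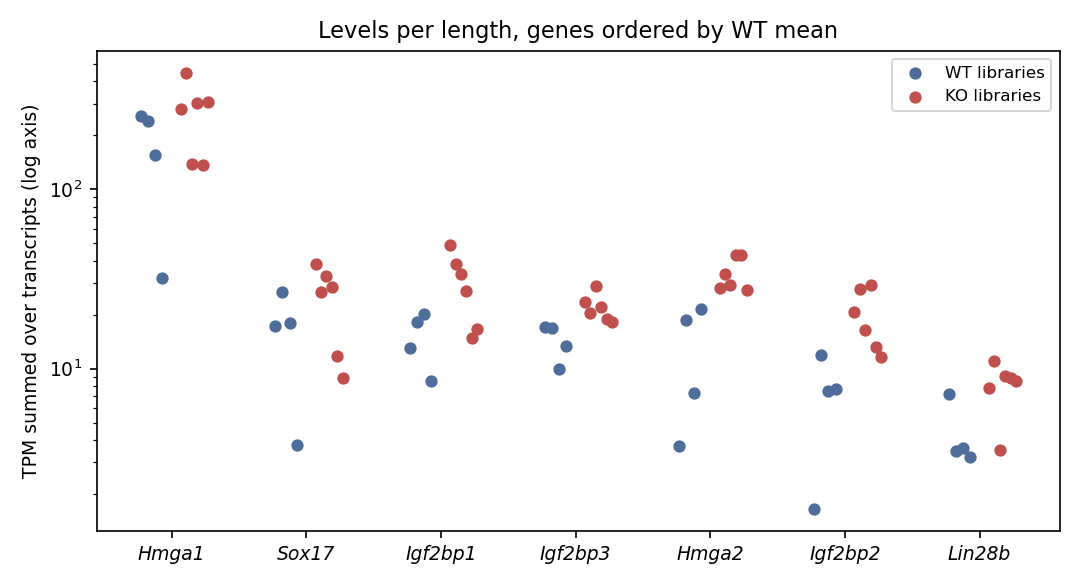
TPM summed over the transcripts of each gene (log axis), in WT (blue, n = 4) and KO (red, n = 6) libraries, with genes ordered by their WT mean. Hmga1 stands above the other genes in all libraries of both groups, and Sox17, Igf2bp1, Igf2bp3 and Hmga2 share a range in WT.

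Over the 10 libraries, the 7 genes did not follow a common order. Hmga2 and Igf2bp2 had a Pearson r of log2 CPM of 0.854 and a Spearman rho of 0.636. Lin28b and Hmga1 had a rho of 0.721 with an r of 0.399, and Igf2bp1 and Sox17 a rho of 0.661 with an r of 0.693. The points of a pair share their library and its cell makeup, and KO and WT libraries were pooled. Lin28b and Sox17, by contrast, had a rho of -0.60, and Hmga2 and Sox17 of -0.52.

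For each member the most similar genes by Spearman rho of CPM were looked up among 10698 genes with a mean of at least 5 CPM. Hmga2 was closest to Etv6 (rho 0.976), an ETS repressor needed by adult stem cells, to Foxp1 (0.976) and to Klf6 (0.964), a zinc finger factor. Igf2bp2 was closest to Slc25a45 (0.988), Csf2rb (0.976), a shared subunit of cytokine receptors, and Fndc3a (0.976). Lin28b was closest to Mzt2 (0.939), Ly6e (0.927) and Lsr (0.927). Such values come from a search of many genes over few libraries. Those for Hmga1 were Mettl22 (0.964), Gorasp1 (0.952) and Pold1 (0.952), the latter a DNA polymerase subunit. Those for Igf2bp1 were Hmg20b (0.964), Aamp (0.952) and Fbn1 (0.939). For Igf2bp3 they were Pdzd8 (0.952), Scaf11 (0.952) and Ube3a (0.927). None of the lists held another of the 7 genes. Sox17 was closest to Actr1a (0.976), Patl1 (0.952) and Senp1 (0.939).

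The wider pathway was read from 9 gene lists with 103 genes tested. Of these, 1 passed edgeR's test as higher in KO and 3 as lower, which is close to the 3.99% called among all genes. In the machinery that makes and destroys let-7, 0 of 17 genes passed in edgeR's test. Of these genes, 4 had an unadjusted p below 0.05, beside 18.8% of all genes, and the median log2 fold change was 0.05. Dicer1, which cuts let-7 precursors, had 55.5 CPM in KO and 41.9 CPM in WT on average (log2 fold change 0.41, SE 0.185, adjusted p = 0.261). All 6 KO libraries were above all WT libraries for Dicer1, as in 2.88% of all genes tested. Ago1, an Argonaute protein that carries miRNAs, had a log2 fold change of 0.78 (SE 0.240, adjusted p = 0.117), and DESeq2 at the study's settings called it (adjusted p = 0.0966). Drosha, which cuts primary transcripts, had a log2 fold change of -0.59 (SE 0.265, adjusted p = 0.256).

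Of 18 other let-7 targets, 0 passed in edgeR's test and 8 had an unadjusted p below 0.05, beside 18.8% of all genes. These 8 pointed in both directions, and the median log2 fold change of the list was -0.10. Mycn, a MYC family factor, had 68.3 ± 37.3 CPM in KO and 24.7 ± 10.9 CPM in WT (log2 fold change 1.47, adjusted p = 0.149), and passed in DESeq2 at the study's settings (adjusted p = 0.0813). Arid3a had a log2 fold change of 0.94 (adjusted p = 0.187). Cdc34, a ubiquitin-conjugating enzyme, and Hras were on the other side with -0.72 (adjusted p = 0.130) and -0.89 (adjusted p = 0.134). In the IGF axis, 0 of 15 genes passed in edgeR's test, with a median of 0.41. The IGF2BP target Igf2 had 208 ± 52.0 CPM in KO and 147 ± 84.4 CPM in WT (adjusted p = 0.497), and H19 had 1118 ± 347 and 650.1 ± 486 CPM (adjusted p = 0.575), with only 29.7 CPM in WT replicate 1.

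Among 15 IGF2BP partners and genes of the m6A mark, 2 fell, beside 2.67% of all genes, with a median of -0.27. An unadjusted p below 0.05 was found for 4, beside 18.8% of all genes. Of these 4, Ybx1, Mettl3 and Hnrnpu (-0.56) had negative log2 fold changes and Dhx9 a positive one (0.79). Ybx1, which binds mRNA in the same particles as IGF2BP1, had 324 ± 78.2 CPM in KO (SD, n = 6) and 807 ± 77.7 CPM in WT (SD, n = 4), with all KO libraries below all WT libraries, as in 3.48% of all genes. Its log2 fold change was -1.32 (SE 0.193, adjusted p = 0.0798). Mettl3, the enzyme that writes m6A, had 103 ± 12.7 CPM in KO and 179 ± 44.0 CPM in WT (log2 fold change -0.80, SE 0.188, adjusted p = 0.0824).

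Among 11 other HMG genes, Hmgb3 fell (log2 fold change -0.93, SE 0.236, adjusted p = 0.0836). Of the 11, 7 had an unadjusted p below 0.05, beside 18.8% of all genes, and the median log2 fold change was -0.28. HMGB3 is an HMG box protein of stem and progenitor cells. Adjusted p values of Ybx1, Mettl3 and Hmgb3 lay close to the threshold, as did those of every called gene: the smallest over all genes was 0.0743. The calls over the lists depended on single libraries. Without any of KO replicates 1, 2, 4, 5 or 6, or without WT replicate 1, 0 of the 103 genes passed. Without KO replicate 3, 9 passed. Under other settings Ybx1 had adjusted p values between 9.16e-06 and 0.251, Mettl3 between 0.00589 and 0.521, and Hmgb3 between 0.016 and 0.255.

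In the remaining lists no gene passed in edgeR's test. DESeq2 at the study's settings called Junb (adjusted p = 0.0327), Egr1 (adjusted p = 0.0645) and Mycn (adjusted p = 0.0813), which is also among the let-7 targets. Junb, an AP-1 factor, and Cdkn2b, a cell cycle inhibitor, were listed as genes that HMGA2 represses, a relation not tested here. Junb had 121 ± 69.4 CPM in KO and 37.8 ± 17.4 CPM in WT (log2 fold change 1.68, SE 0.490, adjusted p = 0.109 in edgeR's test). Cdkn2b had a log2 fold change of -0.88 (adjusted p = 0.790). Of 10 other SOX genes, 0 had an unadjusted p below 0.05. Sox18 and Sox7, which share the SOXF group with Sox17, had log2 fold changes of 0.28 (adjusted p = 0.750) and -0.15 (adjusted p = 0.907). Of 11 other fetal stem cell genes, 3 had an unadjusted p below 0.05 and the median was 0.89. Of these 3, Mycn and Arid3a, named above as let-7 targets, had positive log2 fold changes and Ezh2 had a negative one (-0.60). Over the list 9 of the 11 were positive, and Cd24a (-0.98) was negative beside Ezh2. Of 11 adult stem cell genes 2 had such a p, with a median of 0.14. The share over all genes was 18.8%.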

How the data were processed

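Per the study's methods, the authors made SmartSeq2 libraries from sorted LT-HSCs, sequenced single-end reads without strand or molecular identifiers, and quantified Gencode vM16 (GRCm38) with Kallisto 0.44.0 after bcl2fastq 2.20. The authors deposited transcript tables of estimated counts and of TPM (scaled for effective length), and a gene table of rounded counts, not normalized. How transcripts were assigned to gene symbols is not given in the sources used here. Sums of the estimated counts were within 1 count of 97.5% of the gene table's values and of all values of the 7 genes.

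Counts of genes with at least 11 in total were compared with edgeR 4.0.16 (TMM, glmQLFit robust, glmQLFTest; R 4.3.3), with Benjamini-Hochberg adjustment over 16725 genes and the study's threshold of 0.1. An alternative was the study's own test, DESeq2 (1.42.0) against a log2 change of 0.1. Two-sided exact permutation tests used all 210 splits into 6 and 4 libraries, with a smallest possible p of 0.00476. The scripts were tested on simulated data. Transcript structures came from Gencode vM21, where 99.6% of the 133944 transcripts were found. Replicates are numbered in order of deposition, and the study gives its n as embryos, while the labels do not say that libraries are separate embryos, so p-values measure the spread between libraries. No libraries were left out of the main comparison, and no 2 libraries were identical. A result on 1 listed gene is not reported here. The members and the gene lists were chosen with earlier results of these data known. Genes named are the members, the members of the lists, the 3 genes most like each member, Spi1, Hmga1b as a near copy of Hmga1, and Mir99ahg, chosen after its values were seen; overlapping genes and transcripts are named beside the member they touch.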

Additional observations from a re-analysis of the deposited data

Results flagged for a closer look

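The TPM of Lin28b in WT was flagged because WT replicate 1, with 7.21 TPM, stood apart from the other 3 WT libraries, which held 3.45, 3.62 and 3.21 TPM. The gap was larger than Dixon's test allows for 4 samples, a test that flags about 1 in 20 groups by chance. It was applied to every member in KO and in WT, in CPM and in TPM, and flagged nothing else. WT replicate 1 had 6.02 TPM of the coding transcript Lin28b-201 and 0.688 TPM of the noncoding Lin28b-203. In CPM of the gene table, where Lin28b had 41.6 CPM in this library, the gap was not large enough to be flagged. WT replicate 1 was also the library with the lowest Hmga2 (16.2 CPM), the lowest Igf2bp2 (6.75 CPM) and the lowest endothelial marker sum (562 CPM).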

How the results depend on the processing

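No paired analysis was possible because the labels give no replicate number that KO and WT libraries share. Of 24 alternatives, 23 left 0 of the 7 genes past the threshold, and DESeq2 with no fold-change threshold left 1 (Hmga2). The log2 fold changes of Hmga2, Igf2bp1 and Igf2bp2 were positive under all 24, which reuse the same libraries. Their adjusted p in edgeR's or DESeq2's test ranged from 0.0884 to 0.473, from 0.315 to 0.96 and from 0.125 to 0.431, in that order. The sign of Lin28b turned with transcript sums and average length offsets (0.47), without KO replicate 3 (0.07) and without WT replicate 1 (0.24), and that of Hmga1 without WT replicate 4 (-0.15). Igf2bp3 turned with an offset for transcript length (-0.23), which moved the median log2 fold change of all genes from 0.06 to -0.19. Sox17 turned with that offset (-0.12) and without KO replicates 1 (-0.11), 3 (-0.06) and 4 (-0.0061) or WT replicates 1 (-0.02) and 4 (-0.25). The settings over protein-coding transcripts, with the retained-intron share and without WT replicates 1 and 4 together were chosen after seeing the data. Without WT replicates 1 and 4 together, Lin28b was at 0.25, Hmga1 at -0.060 and Sox17 at -0.44. With 1 library left out, log2 fold changes ranged from -0.30 to 0.24 for Lin28b, -0.15 to 0.42 for Hmga1 and -0.25 to 0.26 for Sox17. The causes of these turns were not tested.

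With 1 library left out, exact permutation p values ranged from 0.476 to 0.976 for Lin28b, 0.0238 to 0.0833 for Hmga2, 0.444 to 0.889 for Hmga1, 0.103 to 0.429 for Igf2bp1, 0.00794 to 0.0595 for Igf2bp2, 0.333 to 0.869 for Igf2bp3 and 0.464 to 1 for Sox17. The counts of pathway genes past the threshold, 4 in the comparison as reported, ranged from 0 to 9 with 1 library left out. They were 8 with the study's DESeq2 settings, 18 with DESeq2 and no fold-change threshold, 10 with the length offset, 0 with Xist as a covariate, 1 over protein-coding transcripts alone, 0 without WT replicates 1 and 4, and 8 with the retained-intron share as a covariate. Over all genes, 221 higher and 446 lower calls became 0 and 0 without KO replicate 1, 2, 5 or 6 or WT replicate 1 and with Xist as a covariate, 585 and 551 with the study's DESeq2 settings, and 998 and 1145 with DESeq2 and no fold-change threshold. In the order of WT levels, Hmga1 stayed first, Igf2bp2 sixth and Lin28b seventh; with 1 WT library left out, Hmga2 took ranks 3 to 5, Igf2bp1 ranks 2 to 5, Igf2bp3 ranks 3 to 5 and Sox17 ranks 2 to 4, and per kilobase of CPM Igf2bp1 was at rank 4 and Igf2bp3 at rank 3. Depth limits the genes of low count, with 151 to 907 counts per library for Lin28b and 71 to 803 for Sox17.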

Other observations

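Mir99ahg, the host gene of let-7c-1, was chosen after its values were seen. It had 9.63, 11.7, 6.66, 7.46, 11.9 and 4.41 CPM in KO and 0, 4.79, 1.41 and 5.80 CPM in WT. KO replicate 6 lay below 2 WT libraries, and the other 5 KO libraries lay above all WT libraries. The log2 fold change was 1.53 (SE 0.885, adjusted p = 0.376 in edgeR's test), and under the alternatives the adjusted p ranged from 0.209 to 0.617. A host gene's RNA is no measure of the mature miRNA.

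Among the 3 LT-HSC markers that passed the test, Mecom, a stem cell transcription factor, had 116 ± 52.6 CPM in KO (SD, n = 6) and 32.7 ± 16.8 CPM in WT (SD, n = 4). All 6 KO libraries were above all WT libraries for Mecom, as in 2.88% of all genes tested. Hlf, which also passed, had 13.7 CPM in KO replicate 3, below the lowest WT library (17.7 CPM). Of the 12 markers, 10 had positive log2 fold changes, and Ly6a (-0.88) and Cd48 (-0.60) had negative ones. Procr, the EPCR surface marker of stem cells, had 51.1 ± 19.8 and 18.2 ± 9.72 CPM (adjusted p = 0.117 in edgeR's test). WT replicate 1 had the lowest value of the 10 libraries for Hmga2, Igf2bp2, Mecom and Procr, with 9.78 CPM for Mecom and 5.69 CPM for Procr.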
